A study of Rattus norvegicus with 6 samples.

Results

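The D-type cyclins, the kinases CDK4 and CDK6 that they activate, and the CDK inhibitors that hold these kinases back were followed in rat ganglion cells in primary culture. The dorsal root ganglia they came from lie beside the spinal cord and hold sensory neurons and their glia. The set is defined by gene symbol (Ccnd1, Ccnd2, Ccnd3, Cdk4, Cdk6, Cdkn1b, Cdkn1c, Cdkn2a, Cdkn2b and Cdkn2c) and by no measured value. All 10 had a row in the mRNA table of 16551 genes. The ganglia came from the L5 to S3 levels of rats whose strain, sex and age the labels do not give. The DM group was taken to be the high-glucose cells (45 mmol/L, 48 h), a reading that no label spells out, and the control group the cells kept for 48 h in DMEM. Each group had 3 samples. The labels call them duplicates, and do not tie them to separate cultures or animals, so the p-values below rest on a spread that may be technical. How much glucose the controls had is not stated, and an osmotic control is absent from the 6 samples. Whether the paraformaldehyde step of the growth protocol applied to the sequenced cells is not stated.

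D-type cyclins are the link between growth signals and the cell cycle: mitogens raise them in G1, they bind CDK4 or CDK6, and the resulting kinases phosphorylate the retinoblastoma protein and so release E2F factors, which switch on genes of S phase. The INK4 inhibitors bind CDK4 and CDK6 themselves, whereas the CIP/KIP inhibitors bind cyclin-CDK complexes and block CDK2 most strongly. In ganglion cultures the neurons are postmitotic and the dividing cells are glia, fibroblasts and other support cells.

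Levels are CPM (counts-per-million) values over the library size as the authors scaled it. Each sample held between 28780612 and 33108451 reads in the mRNA table. Log2 fold changes are DM minus control with their standard error (SE). They were tested with limma over all genes with Benjamini-Hochberg adjustment, and a gene was called at an adjusted p under 0.05. Of all genes, 24.9% were called higher and 25.5% lower in DM, 50.5% together, and in 57.6% the DM and control samples did not overlap. The scaling matters here: on unscaled library totals every log2 fold change is 0.11 higher (genes with few reads by about that), and the calls over all genes split into 5932 higher and 2847 lower, against 4126 and 4228 with the deposited scaling. Reads came from all cells of a culture, so fewer cells of a type and less RNA per cell cannot be told apart. The labels call the cells nerve cells, and the 10 neuron markers summed to 72.6 to 73.6 CPM in DM and 97.1 to 101.4 CPM in control, with 6 called lower and 1 higher. Most of that sum came from Uchl1 (48.0 CPM in DM and 58.8 CPM in control), Tubb3 (8.88 CPM in DM and 23.1 CPM in control) and Syt1, which was higher (14.0 CPM in DM and 7.58 CPM in control). Others of the list were near 0, among them Rbfox3 (NeuN), with 9 reads over the 3 DM samples and 6 over the 3 control samples, Elavl3, with 8 reads in DM and 19 in control, and Snap25, with 2 reads in DM and 27 in control. Schwann cell markers were lower in DM, with 7 of 7 measured called lower and a summed level of 300.2 to 330 CPM in DM and 493 to 517 CPM in control. Of 7 mural cell markers 5 were called lower and 1 higher, with sums of 4423 to 4540 CPM in DM and 9206 to 9326 CPM in control. Acta2 made up most of this sum (2868 CPM in DM and 6734 CPM in control). Notch3 was higher, and Pdgfrb was not called (843 CPM in DM and 858 CPM in control). Satellite glia markers summed to 124 to 135 CPM in DM and 70.3 to 73.7 CPM in control (2 of 5 higher, 2 lower). Most of that sum came from Glul and Slc1a3, which were higher, while Fabp7 and Cadm2 were lower. Fibroblast markers summed to 26810 to 29270 CPM in DM and 34380 to 36770 CPM in control (4 of 6 higher, 2 lower). Nearly all of that sum was Col1a1 (26170 CPM in DM and 34810 CPM in control). Thy1 was also lower, whereas Lum (832 CPM in DM and 187 CPM in control), Dcn, Pdgfra and Pi16 were higher. None of 4 endothelial markers was called, and 1 of 7 macrophage markers was higher and 3 lower, with sums of at most 16.2 CPM for either list. No marker was at 0 reads over a whole group. The part of these markers in the results below was not tested.

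Promoter windows were at hand for 6 of the 10 genes, from RefSeq (build GRCr8, 250 bases before to 50 after the gene start). There was none for Ccnd1, Ccnd2, Cdk6 and Cdkn1c. The pair below carried motifs of factors known for control of growth genes, a different motif in each. Both genes were lower in DM, but a link between motif and direction was not tested. Capitals mark E-boxes (CACGTG, bound by MYC and its relatives) in Cdk4 and a cyclic AMP response element (TGACGTCA) in Cdkn2b.
Cdk4, chr7:64771203-64771502, plus strand: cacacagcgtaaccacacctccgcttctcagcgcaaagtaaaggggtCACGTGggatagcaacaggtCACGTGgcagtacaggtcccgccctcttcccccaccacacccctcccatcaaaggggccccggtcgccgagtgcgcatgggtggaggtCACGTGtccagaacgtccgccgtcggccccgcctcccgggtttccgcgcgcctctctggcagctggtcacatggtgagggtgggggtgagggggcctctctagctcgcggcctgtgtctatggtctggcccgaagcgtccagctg
Cdkn2b, chr5:109134806-109135105, minus strand: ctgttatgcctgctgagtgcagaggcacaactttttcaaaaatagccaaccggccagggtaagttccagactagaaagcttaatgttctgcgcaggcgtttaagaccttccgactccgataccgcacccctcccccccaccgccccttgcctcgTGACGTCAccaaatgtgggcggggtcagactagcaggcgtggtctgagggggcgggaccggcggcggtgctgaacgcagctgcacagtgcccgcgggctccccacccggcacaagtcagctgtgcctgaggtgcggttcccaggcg

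The Cdk4 window held 3 E-boxes, a motif found in 6.4% of 33469 RefSeq windows of 300 bases, and the Cdkn2b window held 1 cyclic AMP response element, found in 1.8%. Both strands were searched. The window of Ccnd3, also called lower in DM, held neither motif, nor did those of Cdkn1b, Cdkn2a and Cdkn2c. Among the 6 windows, GC boxes (GGGCGG, in 33.1% of all windows) were in 6 and CCAAT boxes (CCAAT, 37.5%) in 2, those of Ccnd3 and Cdkn1b. None of the 6 held an AP-1 site (TGANTCA, 7.3%), a FoxO site (GTAAACA, 3.8%) or an E2F site (TTTCCCGC, TTTGGCGC, TTTCGCGC or TTTGCCGC, together 2.1%), and no match overlapped one of another motif. A match describes the letters of the window and not the binding of a factor.

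Of the 10 genes, 5 were called lower in DM (Ccnd1, Ccnd2, Ccnd3, Cdk4 and Cdkn2b) and 3 higher (Cdk6, Cdkn1b and Cdkn1c), while Cdkn2a and Cdkn2c did not pass the threshold. In 8 of the 10 the DM and control samples did not overlap. Both counts stand beside backgrounds of 50.5% and 57.6% over all genes. The median log2 fold change of the 10 was -0.03, against 0.01 over all genes tested. The widest changes were at the ends of the family, in Ccnd1 downward and in Cdkn1c upward.

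**Figure D1:**
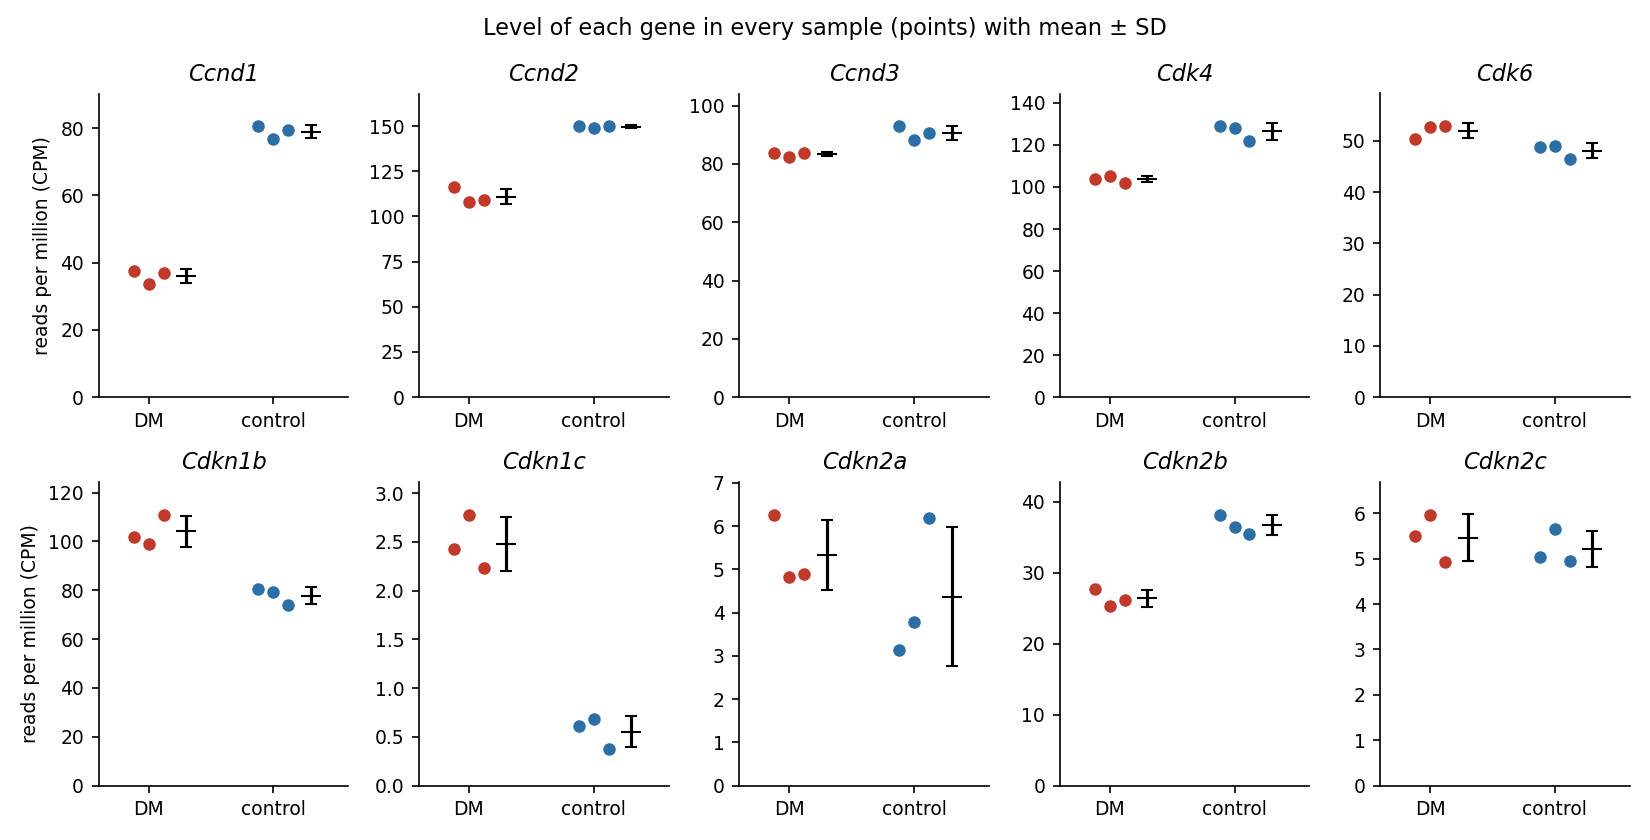
Level of each of the 10 genes in CPM (y axis from 0) in the DM samples (red, left) and the control samples (blue, right), with the mean ± SD of each group beside its points. The 3 DM samples of Ccnd1 lie at 33.6 to 37.6 CPM and its 3 control samples at 76.8 to 80.6 CPM, while for Cdkn2a and Cdkn2c the points of the groups overlap.

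The D-type cyclins were lower in DM, each by a different amount, with Ccnd1 lowered most. Ccnd1 (ENSRNOG00000020918) encodes cyclin D1, the D cyclin most responsive to mitogens and adhesion. It had 37.6, 33.6 and 37.0 CPM in the DM samples, against 80.6, 76.8 and 79.3 CPM in the control samples. The highest DM sample was below the lowest control sample by more than the whole range of either group. Its log2 fold change was -1.13 ± 0.04, a level 2.19-fold lower in DM (95% confidence interval 2.05 to 2.34), with an adjusted p = 1.27e-10 in limma. It lay below the 5th percentile of all genes, which was -1.03.

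Ccnd2 (ENSRNOG00000057710) encodes cyclin D2, which is known as a MYC target. Its level was 116, 108 and 109 CPM in DM, against 150, 149 and 150 CPM in control. The groups were far apart, and the control samples were nearly equal. The log2 fold change was -0.43 ± 0.03, a level 1.35-fold lower in DM (1.29 to 1.41; adjusted p = 3.73e-08 in limma).

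Ccnd3 (ENSRNOG00000050258), for cyclin D3, often the D cyclin kept on in differentiating cells, changed least of the D cyclins. It had 83.7, 82.5 and 83.6 CPM in DM, against 93.0, 88.3 and 90.6 CPM in control. The groups did not overlap, but the gap was a few CPM. The log2 fold change was -0.12 ± 0.03 (adjusted p = 0.00346 in limma), and on unscaled library totals it was -0.0079 with an adjusted p = 0.841, so that the lower level of Ccnd3 rests on the scaling. It overlaps 2 lncRNA genes in the RefSeq table. Summed over the D cyclins, the level was 237, 224 and 230 CPM in DM, against 324, 314 and 320 CPM in control.

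The make-up of the D cyclin reads does not depend on library scaling. Ccnd1 gave 15.7% ± 0.60 of these reads in DM and 24.7% ± 0.24 in control (SD, n = 3 each). Ccnd3 went the other way, with 36.2% ± 0.77 in DM and 28.4% ± 0.31 in control. Ccnd2 held 48.2% ± 0.70 in DM and 46.9% ± 0.53 in control, with a narrow overlap, since the lowest DM sample and the highest control sample both rounded to 47.5%. An exact two-sided permutation test gave p = 0.1 for Ccnd1 and Ccnd3, the smallest that 3 against 3 samples allow, and p = 0.2 for Ccnd2. These shares are of reads and also reflect transcript length, so they are compared between groups and not between genes.

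**Figure D2:**
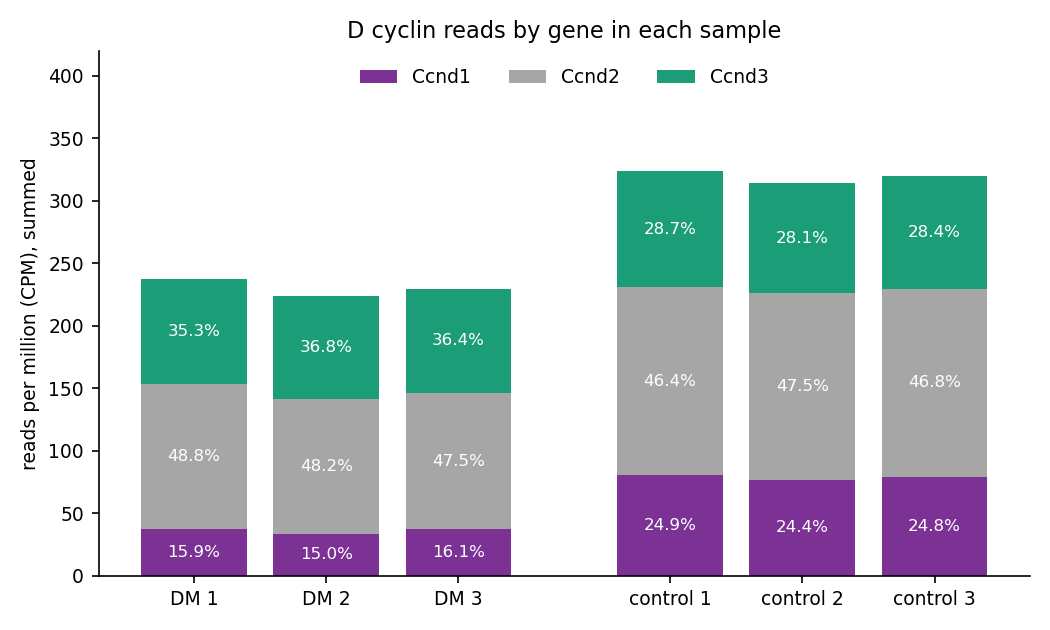
Summed CPM of the D cyclin genes in each sample, DM samples left and control samples right, stacked by gene, with the percentage of the D cyclin reads printed in each block. The stacks are 224 to 237 CPM high in DM and 314 to 324 CPM in control, and the Ccnd1 share is smaller and the Ccnd3 share larger in every DM sample than in every control sample.

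The catalytic partners moved in opposite directions. Cdk4 (ENSRNOG00000025602) had 104, 105 and 102 CPM in DM, against 129, 128 and 122 CPM in control, with no overlap. Its log2 fold change was -0.28 ± 0.03, a level 1.22-fold lower in DM (1.17 to 1.27; adjusted p = 2.39e-06 in limma). In the RefSeq table Cdk4 overlaps Tspan31, and the strand of the counting is not given in the sources used here, so reads of the pair cannot be told apart where they overlap. Tspan31, named for this overlap, had a log2 fold change of 0.01 ± 0.03 and was not called (adjusted p = 0.732 in limma).

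Cdk6 (ENSRNOG00000009258), the kinase with the same partners and targets as Cdk4, was slightly higher. It had 50.3, 52.7 and 52.9 CPM in DM, against 48.8, 49.1 and 46.4 CPM in control. The lowest DM sample lay just above the highest control sample. The log2 fold change was 0.11 ± 0.04 (adjusted p = 0.0253 in limma), and the call was lost without DM 2 (adjusted p = 0.0728), DM 3 (0.0796) or control 3 (0.103) and with a single variance prior (0.0792), within 0.000162 to 0.103 over all alternatives. On unscaled library totals its log2 fold change was 0.22. In the RefSeq table Cdk6 overlaps a lncRNA gene.

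Of the CIP/KIP inhibitors, both were higher in DM. Cdkn1b (ENSRNOG00000007249) encodes p27, the inhibitor of cyclin-CDK2 that also helps D cyclins and CDK4 assemble and that accumulates in quiescent cells. It had 102, 98.8 and 111 CPM in DM, against 80.4, 79.1 and 73.9 CPM in control. Every DM sample was above every control sample. The log2 fold change was 0.42 ± 0.04, a level 1.34-fold higher in DM (1.25 to 1.43; adjusted p = 2.79e-06 in limma).

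Cdkn1c (ENSRNOG00000059500) encodes p57, an imprinted inhibitor linked to cell cycle exit during differentiation, also known from rat Schwann cells. It was scarce, with 73, 87 and 76 reads in the DM samples, against 17, 21 and 11 reads in the control samples. As levels these were 2.43, 2.78 and 2.23 CPM in DM, against 0.612, 0.679 and 0.372 CPM in control. Even the lowest DM sample was more than 3 times the highest control sample. The log2 fold change was 2.16 ± 0.26, a level 4.48-fold higher in DM (3.05 to 6.59; adjusted p = 1e-05 in limma), and of all genes 1.57% had a log2 fold change above 2. Because 0.5 reads are added to each count in the deposited values, this scale slightly understates changes of scarce genes. Over the alternatives the log2 fold change ran from 1.91 to 2.33, and the call held in all of them.

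The INK4 inhibitors did not share a direction. Cdkn2b (ENSRNOG00000006735), for p15, the INK4 inhibitor known for induction by TGF-beta, had 27.7, 25.3 and 26.2 CPM in DM, against 38.2, 36.4 and 35.4 CPM in control. The groups were well separated. Its log2 fold change was -0.47 ± 0.05, a level 1.39-fold lower in DM (1.29 to 1.49; adjusted p = 2.11e-06 in limma).

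Cdkn2a (ENSRNOG00000059837), which in rodents yields both p16 and the p53 pathway protein ARF from overlapping transcripts, had 6.27, 4.82 and 4.90 CPM in DM, against 3.13, 3.79 and 6.19 CPM in control. The control samples were spread widely, and control 3 lay above DM 2 and DM 3 and just below DM 1. The log2 fold change was 0.33 ± 0.20, with a 95% confidence interval from -0.11 to 0.78 (adjusted p = 0.196 in limma). Without control 3 it was 0.62 and passed (adjusted p = 0.00603), and over all alternatives the adjusted p ranged up to 0.632. The table counts reads per gene, so p16 and ARF transcripts are pooled in this value. Cdkn2c (ENSRNOG00000008956), for p18, had 5.50, 5.97 and 4.93 CPM in DM, against 5.04, 5.66 and 4.94 CPM in control. The groups overlapped throughout. Its log2 fold change was 0.07 ± 0.11 (-0.18 to 0.31; adjusted p = 0.662 in limma), so that a change of up to 1.24-fold upward or 1.13-fold downward is within the interval.

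**Figure D3:**
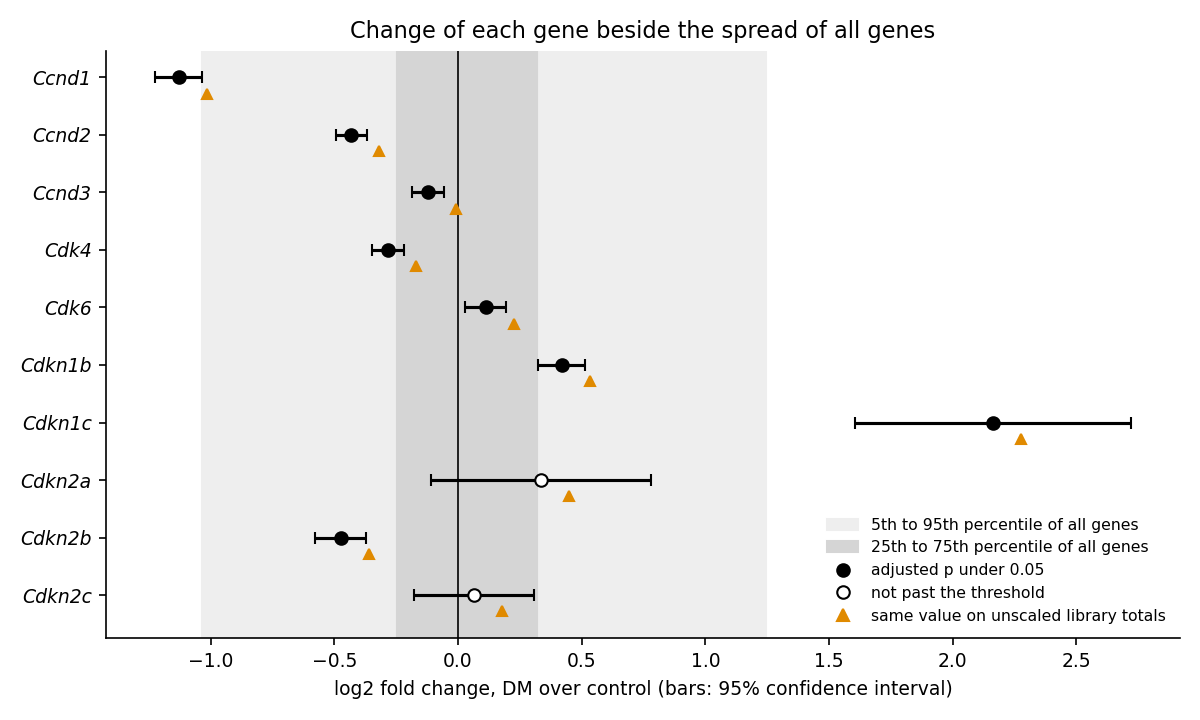
Log2 fold change (DM over control, x axis) of each of the 10 genes with its 95% confidence interval, filled where called and open where not, over grey bands for the 5th to 95th (-1.03 to 1.25) and 25th to 75th (-0.25 to 0.32) percentiles of all genes. The bands are those of the main fit, and by their main values Ccnd1 and Cdkn1c lie outside the wide band. Orange triangles give the value on unscaled library totals, 0.11 to the right of the main value. The triangle of Ccnd1 lies at -1.02, just inside the wide band, and that of Ccnd3 at -0.0079.

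Ratios between genes of the same sample are free of library size and scaling. In all 7 ratios examined the DM and control samples did not overlap, and each reached the smallest p that 3 against 3 samples allow (exact two-sided permutation test p = 0.1, and 0.1 after Benjamini-Hochberg adjustment over the 7), which is above the threshold of 0.05. The pairs were chosen with earlier results known and share genes, so the 7 are not independent support. Their common direction follows from which gene was put on top. Each difference between groups restates the log2 fold changes of its 2 genes. The log2 ratio of Cdkn1b to Ccnd1, of inhibitor to cyclin, was 1.44, 1.56 and 1.58 in DM, against -0.0039, 0.04 and -0.10 in control. This is a ratio 2.93-fold higher in DM. The log2 ratio of Ccnd3 to Ccnd1 averaged 1.21 ± 0.08 in DM and 0.20 ± 0.0075 in control, a ratio 2.01-fold higher in DM. That of Ccnd2 to Ccnd1 averaged 1.62 ± 0.06 in DM and 0.92 ± 0.03 in control, so the D cyclins did not move by a common factor. Between the kinases, the log2 ratio of Cdk6 to Cdk4 averaged -0.999 ± 0.05 in DM and -1.39 ± 0.01 in control (SD, n = 3 each), a ratio 1.31-fold higher in DM whatever the scaling. The difference between groups in the log2 ratio was 0.31 for Ccnd3 to Ccnd2, 1.74 for Cdkn1c to Cdkn1b and 0.54 for Cdkn2c to Cdkn2b.

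**Figure D4:**
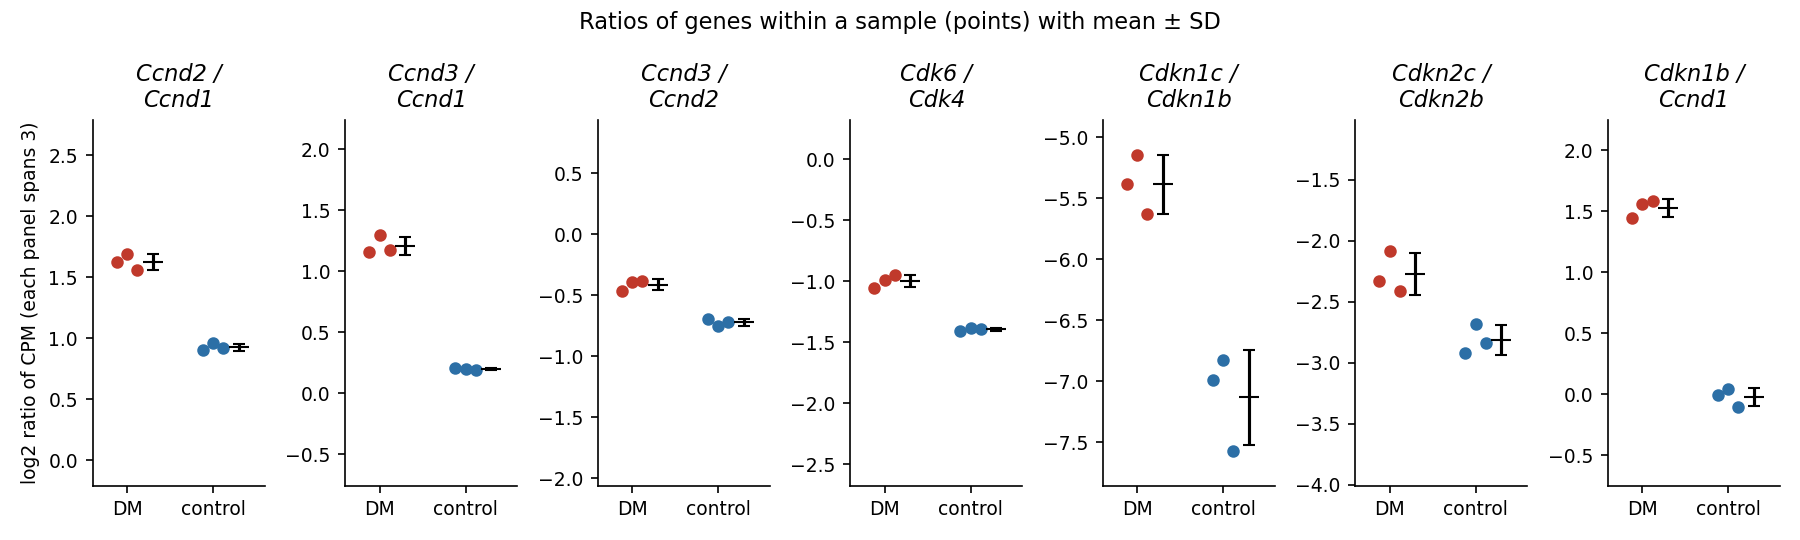
Log2 ratio of 2 genes within each sample (y axis, each panel spanning 3 log2 units), DM samples red on the left and control samples blue on the right, with mean ± SD beside them. In every panel the 3 DM samples lie above the 3 control samples, with the largest differences between group means for Cdkn1c to Cdkn1b (1.74) and Cdkn1b to Ccnd1 (1.55).

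The other genes of the G1 pathway were followed in 9 lists with 71 measured genes. The counts of every list stand beside 25.5% of all genes called lower and 24.9% called higher. Of the 71 genes, 34 were called lower and 15 higher in DM, with a median log2 fold change of -0.11 against 0.01 over all genes. The direction of this count rests on the scaling, because on unscaled library totals 17 were lower and 22 higher. Among the targets of D cyclin kinases, the RB family and E2F factors, 5 of 13 were lower and 2 higher (4 lower and 5 higher on unscaled totals). The RB relatives diverged: Rbl2 (p130), which holds E2F targets off in quiescent cells, had a log2 fold change of 0.58 ± 0.05, and Rbl1 (p107), the relative made in cycling cells, one of -0.61 ± 0.05 (adjusted p = 1.58e-07 and 3.3e-07 in limma). Rb1 itself had 0.12 ± 0.05 and did not pass (adjusted p = 0.0535), but passed on unscaled totals (0.000792), after quantile normalization (0.0426), under both filters on low values (0.0454 and 0.0455) and without control 1 (0.0336). E2f6, a repressive E2F, had -0.36 ± 0.05.

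Downstream, 11 of 15 S-phase genes that E2F factors activate were called lower and 0 higher, and their median log2 fold change was -0.16. On unscaled library totals only 3 were called lower. Mybl2, a transcription factor that acts at the start of S phase and in G2, had a log2 fold change of -0.98 ± 0.05, and the replication licensing factor Cdt1 one of -0.63 ± 0.08. Thymidine kinase Tk1 had -0.19 ± 0.03, and its call was lost on unscaled totals (adjusted p = 0.0827). Of the cyclins and kinase next in line, Ccna2 (cyclin A) had -0.58 ± 0.03 and Ccne2 (a cyclin E) -0.28 ± 0.05. The other cyclin E, Ccne1, had 0.15 ± 0.06 and did not pass (adjusted p = 0.0786), but passed on unscaled totals (0.00359) and without DM 2 (0.0201) or control 2 (0.0404). Cdk2, with -0.16 ± 0.05 (adjusted p = 0.0263 in limma), was not called on unscaled totals (0.513), with a single variance prior (0.0862), or without DM 1 (0.12), DM 3 (0.0527), control 1 (0.0797) or control 3 (0.0924).

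Proliferation markers were called lower in 5 of 6 cases, 3 of 6 on unscaled totals, by small amounts. Mki67 had 471 ± 10.9 CPM in DM and 556 ± 7.77 CPM in control (SD, n = 3 each), a log2 fold change of -0.24 ± 0.02 (-0.10 after quantile normalization). The mitotic kinase gene Cdk1 had -0.29 ± 0.04 and cyclin B1, Ccnb1, -0.33 ± 0.05. The median log2 fold change of the 6 markers was -0.26, against 0.01 over all genes.

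The CIP/KIP relative Cdkn1a, which encodes p21, the inhibitor best known as a p53 target, was also higher. It had 283 ± 5.41 CPM in DM and 121 ± 1.08 CPM in control (SD, n = 3 each), a log2 fold change of 1.23 ± 0.02 (adjusted p = 1.32e-13 in limma). Every measured gene of the CIP/KIP family (Cdkn1a, Cdkn1b and Cdkn1c) was thus higher in DM, also on unscaled library totals and after quantile normalization. Cdkn2d had no row under that symbol in the mRNA table and so was not analysed here.

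Of the transcription factors that act on the D cyclin and inhibitor genes, 5 of 10 were higher (3 with a single variance prior) and 3 lower. Myc, an activator of Ccnd2 and Cdk4, had a log2 fold change of -0.96 ± 0.04, and Ets1, which acts on the Ccnd1 promoter, one of -0.38 ± 0.03. Foxo4, of the FoxO family that activates Cdkn1b, had 0.57 ± 0.05. Foxo3 (0.41 ± 0.04), Foxo1 (0.23 ± 0.05), Ets2 (0.21 ± 0.08) and Jun (0.07 ± 0.02) were also called higher. Fosl1 (-0.29 ± 0.08) was called lower, and Mycn and Egr1 were not called. Whether these factors had a part in the changes of the 10 genes was not tested. Of the 9 genes for turnover of D cyclins and p27, 5 were higher (2 with a single variance prior) and 2 lower (1 with that prior or on unscaled totals). Without DM 3 or control 1, 3 were higher, and without control 2, 1 was lower. Fbxo4, the F-box protein described for cyclin D1, had 0.55 ± 0.08, the scaffold Cul1 0.24 ± 0.02 and the RING subunit Rbx1 -0.24 ± 0.04. Among the CDK-activating kinase genes and the CDK4 chaperone, 1 of 4 was higher and 2 lower. The chaperone Cdc37 had -0.21 ± 0.02. Cdk7 (0.11 ± 0.04) and its cyclin Ccnh (-0.11 ± 0.04) were both called at the margin (adjusted p = 0.0318 and 0.0404 in limma). Ccnh came to 0.0026 on unscaled totals, and the calls of both were lost in 6 (Cdk7) and 7 further (Ccnh) alternatives, among them, for Cdk7, the fits without DM 1, DM 2, control 1, control 2 or control 3 (adjusted p = 0.052 to 0.108) and, for Ccnh, those without DM 1, DM 3, control 2 or control 3 (0.0628 to 0.154). Of 8 Polycomb genes, whose products silence the Cdkn2a and Cdkn2b locus, 3 were lower and 1 higher, and on unscaled totals 1 lower and 3 higher. The share called was about that of all genes (50.5%). Ezh2 had -0.23 ± 0.04, Eed -0.14 ± 0.04 (-0.03 on unscaled totals, adjusted p = 0.572) and Cbx8 0.27 ± 0.09, whose call was lost without DM 3 (adjusted p = 0.105), control 1 (0.0513) or control 2 (0.0797).

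**Figure D5:**
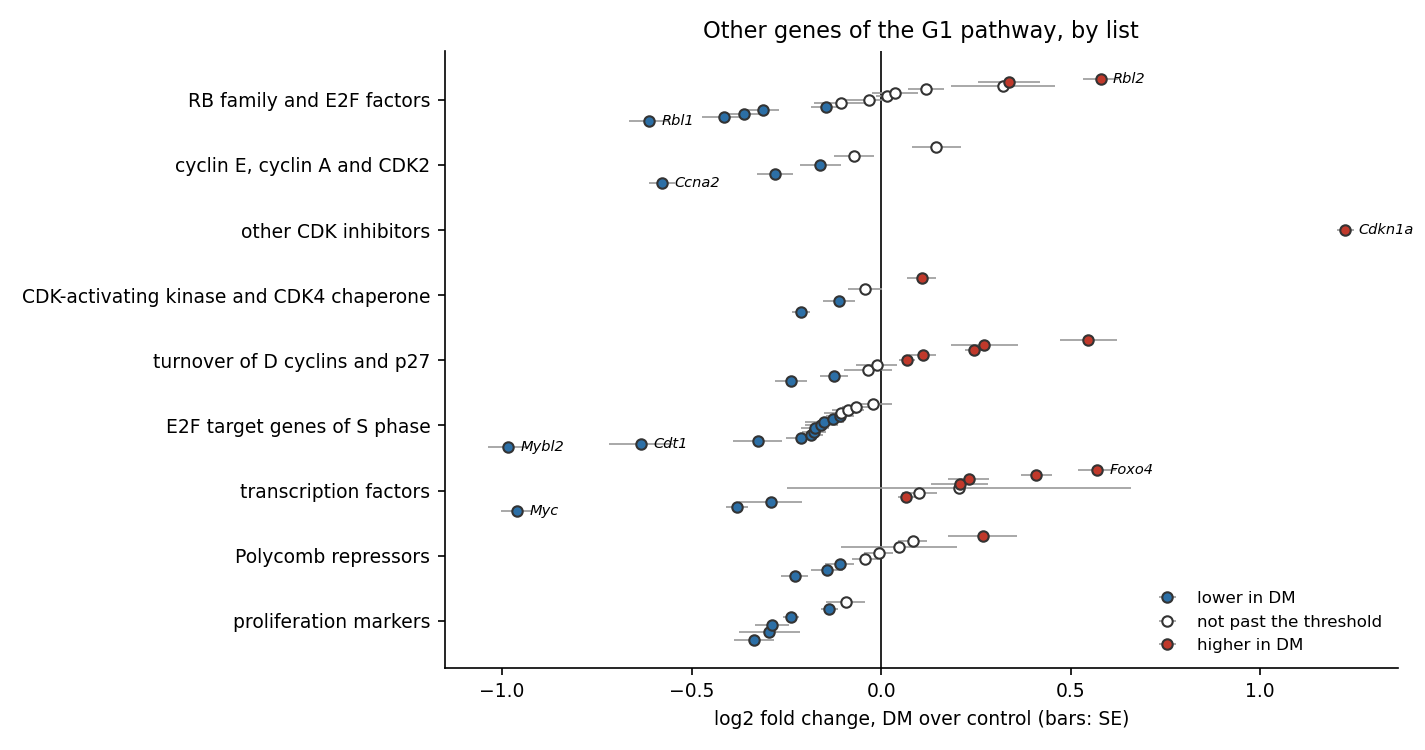
Log2 fold change (DM over control, x axis, bars for SE) of the 71 other genes of the pathway, grouped by list, red where called higher, blue where called lower and open where not called, with names for changes beyond 0.55. Cdkn1a (1.23) stands highest and Mybl2 (-0.98) and Myc (-0.96) lowest. With the deposited scaling the 15 E2F target genes all lie left of 0, whereas on unscaled totals values above -0.11 move right of it.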

How the data were processed

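RNA of 3 DM and 3 control samples was sequenced. Per the submitters' processing notes, the build was Rnor_6.0 and the tools were featureCounts 1.6.0, HISAT2 2.1.0 and fastp 0.19.4, with no roles or settings. The values the authors deposited are log2 CPM, voom-normalized per the file names, that is, 0.5 was added to the reads before division by the scaled library size. Whole reads were recovered from them: 100% of values came within 0.01 of a whole number, by 0.0033 at most. Scaling factors were 1.03 to 1.05 in DM and 0.959 to 0.964 in control. The separately scaled lncRNA table, which holds none of the 10 genes, was not used.

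The log2 values were fitted with limma 3.58.1 (R 4.3.3), with group as the term, a trended variance prior, two-sided tests and Benjamini-Hochberg adjustment over all 16551 genes. The fit was tested on simulated data with far fewer changed genes than were called here and with the scaling taken as known. That test therefore does not bear on the choice of scaling. Where a symbol had several rows, that of the highest mean counted. Every pair of samples differed beyond counting error, with a mean chi-square per gene of 2.72 to 4.24 within groups, so each was counted as 1 replicate. All 10 genes are named. Of each list, up to 3 called genes with the smallest p were named, and Cdkn1a, Cdkn2d, Rb1, Ccne1, Ccne2, Cdk2 and Mki67 whatever their values. The genes, lists and tests were chosen with earlier results of these data known. Gene symbols are those of the deposited table. Figures used matplotlib 3.10.9 in Python 3.11.15.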

Additional observations from a re-analysis of the deposited data

How the results depend on the processing

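Over 14 alternatives (quantile normalization, unscaled library totals, 2 filters on low values, a pseudocount of 2 reads, a single variance prior, a replicate block, voom weights on the recovered reads, which were added after seeing the data, and 6 fits without 1 sample), Ccnd1, Ccnd2, Cdk4, Cdkn1b, Cdkn1c and Cdkn2b kept their direction and their call. Of 518 single-gene values over 37 named genes, 478 kept direction and side of the threshold, 29 lost the call, 9 gained it and 2 changed sign. Those were Cdkn2c without DM 2 (-0.00043, adjusted p = 0.999; up to 0.14, without DM 3) and Ccnh on unscaled library totals (0.0026). The member genes called numbered 2 to 3 higher and 5 lower without 1 sample, and 4 were lower on unscaled totals, where Ccnd3 was lost. The other pathway genes called lower were 34, but 17 on unscaled totals and 29 to 33 without 1 sample. Those higher were 11 to 13 without 1 sample. Calls over all genes ranged from 3607 to 3878 higher and 3839 to 4031 lower without 1 sample.

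Differences between groups in the log2 ratios without 1 sample ran from 0.67 to 0.73 for Ccnd2 to Ccnd1, 0.97 to 1.04 for Ccnd3 to Ccnd1, 0.29 to 0.34 for Ccnd3 to Ccnd2, 0.37 to 0.42 for Cdk6 to Cdk4, 1.53 to 1.90 for Cdkn1c to Cdkn1b, 0.44 to 0.61 for Cdkn2c to Cdkn2b and 1.51 to 1.59 for Cdkn1b to Ccnd1. Samples with the same number did not deviate together (correlations of -0.09, -0.04 and 0.03, against -0.07 to 0.12 between different numbers). With 3 samples per group this cannot show whether the numbers pair them. With a replicate block 3968 genes were higher and 4084 lower, 3 and 5 of the members, 13 and 33 of the other pathway genes. The planned edgeR and DESeq2 tests were not run, and limma with voom weights on the recovered reads was used in their place. Depth limits Cdkn1c, Cdkn2a and Cdkn2c most, with 49 to 520 reads per group.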

Other observations

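The genes beside the 10 on the chromosome were looked at after their values were seen, taking the 3 nearest protein-coding genes on either side in the RefSeq table (GRCr8, used for gene order only). Of 32 such neighbours with a value, 9 were called higher and 6 lower in DM in limma, beside 24.9% and 25.5% of all genes. Near Ccnd1, which was lower, Mrgprf, which encodes a Mas-related receptor, had a log2 fold change of 3.601 ± 0.07 on 8251 reads in DM and 628 in control, and Tpcn2, a lysosomal ion channel, one of 0.43 ± 0.08. Beside Ccnd2, Tigar, a regulator of glycolysis, had -0.49 ± 0.10 and Parp11 0.38 ± 0.08.

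Beside Cdkn1c, Slc22a18, a transporter gene of the same imprinted cluster, had a log2 fold change of 0.51 ± 0.09 (adjusted p = 0.000323 in limma). Phlda2, the imprinted growth regulator next to it, had 0.60 ± 0.36 on 48 reads in DM and 29 in control and was not called (adjusted p = 0.188). Nap1l4, a histone chaperone gene of the cluster, had -0.13 ± 0.03. On the other side of Cdkn1c, Kcnq1 (0.51 ± 0.39, adjusted p = 0.311 in limma) and Trpm5 (0.07 ± 0.65) were not called, and Tssc4 (0.16 ± 0.06) was called higher. Mtap, which salvages methionine and lies beside Cdkn2a, had -0.52 ± 0.04, close in size to the -0.47 ± 0.05 of Cdkn2b, while Cdkn2a had 0.33 ± 0.20. Agap2, near Cdk4, had 2.15 ± 0.34 on 90 reads in DM and 18 in control.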
